A study of Mus musculus with 6 samples.

Results

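Long noncoding transcripts that carry no gene name were measured by array probes labelled with a stretch of the genome and a strand, such as chr14:44284425-44300475_F, where F is the forward and R the reverse strand of mouse build mm9. The array held 4276 such autosomal probes in 3094 intervals. The members described here are the 1777 of them (41.6%), in 1452 intervals, that were selected on their signal. A probe had to be well above background, in the channel of tamoxifen or of oil, on the 2 arrays of a couple and in 2 couples or more, so signal levels are given as a description with no test. The arrays held 56605 probes in all, of which 31277 passed the same filter with no missing value and were tested together. A couple is a tamoxifen sample and the oil sample of the same number, hybridised to the same 2 arrays with the dyes exchanged.

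The tissue was lung tumor from C57BL/6J mice, and every sample came from mice of the genotype Ror1f/f; CAG-CreER; SPC-hEGFRdel746-750. The agent was tamoxifen in 3 samples and corn oil in 3, given for 4 weeks from 16 weeks of age, and tumors were taken at 20 weeks. The CAG promoter drives the tamoxifen-dependent CreER in most cell types, and the SPC promoter drives the human EGFR transgene in alveolar type 2 cells, so that the floxed Ror1, the Cre and the transgene were shared by both treatments, which by the labels differed in the agent. Nothing in the labels ties a sample number to an animal of its own, so the p-values measure the spread between these samples. By the Eif2s3y and Xist levels given with the markers, the samples of 1 treatment are not all RNA of 1 animal. Which exon is floxed is likewise not stated there. The Ror1 probe well above background was higher by 0.58, 0.44 and 0.18 (log2) in the samples labelled tamoxifen of couples 1, 2 and 3, a mean of 0.40 ± 0.21 (SD, n = 3; limma with Benjamini-Hochberg adjustment, adjusted p = 0.69). The other Ror1 probe was well above background in 0 of 12 readings, and neither probe checks the labels.

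Long intergenic noncoding RNAs are transcribed by RNA polymerase II outside protein-coding genes, and many are capped, spliced and polyadenylated like messenger RNA. They are known for low abundance and for expression restricted to few tissues or cell states. Some act on chromatin or on neighbouring genes, such as Airn and Kcnq1ot1 at imprinted loci, while for most intervals probed here no role is known.

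The probes are 60 bases long, and the 6 sequences that follow belong to the members with the lowest ratios of tamoxifen over oil that held on every array. Each reads 5′ to 3′ as the scanner files give it. Capitals mark a run of at least 5 G, which 1 of the 6 holds. Such runs were found in 57 members (3.21%) and in 2.22% of all probes on the array, on the probe strand, and they recur in the dye-swap comparison.

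chr14:44284425-44300475_F: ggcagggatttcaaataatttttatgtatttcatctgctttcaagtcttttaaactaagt
chr11:97457180-97487074_R: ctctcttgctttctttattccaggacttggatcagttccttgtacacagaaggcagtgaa
chr10:39666719-39679959_R: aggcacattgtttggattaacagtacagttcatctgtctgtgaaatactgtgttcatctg
chr3:30099759-30133959_R: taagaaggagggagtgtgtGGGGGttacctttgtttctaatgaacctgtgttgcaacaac
chr19:46419916-46421753_F: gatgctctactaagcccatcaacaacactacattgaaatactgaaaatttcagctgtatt
chr7:69088784-69089906_R: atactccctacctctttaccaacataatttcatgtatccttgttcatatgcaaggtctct

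Detection was measured first. Probes with an NM accession, which stand for messenger RNAs, passed the filter in 68.7% of 29937 cases and probes with an NR accession, for named noncoding RNAs, in 33.6% of 2556. The 41.6% of the position-named probes lay between them, and 55.3% of all probes on the array passed. Of the members, 1609 passed through both channels, 105 through the tamoxifen channel alone and 63 through the oil channel alone. In all 12 readings of the 6 arrays 1424 members were well above background. The number of members well above background in all 6 readings of 1 treatment and in none of the other was 0, and 2 members had no such reading in 1 of the treatments. Just inside the rule, 181 probes that passed in no more than 2 couples had a median log2 signal of 6.49, and just outside it, 167 probes that passed in 1 couple had 6.37. The share of position-named probes that passed was larger for longer intervals, from 30.4% of those up to 1 kb to 48.4% of those over 50 kb, and for probes of higher GC content, from 35.3% under 40% GC to 55.9% at 50% GC and over.

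The members were about evenly split between the strands, with 850 forward and 927 reverse, and their intervals ran from 67 to 533972 bases, with a median of 11915. Of the 4185 position-named probes with a mapped position, 4184 lay inside the interval that names them. The polyadenylation signals AATAAA and ATTAAA, which precede the cleavage site of messenger RNA, were present on the probe strand in 6.98% of the members and on the other strand in 4.39%. The same shares were 14.0% and 6.17% for the NM probes, 13.4% and 6.36% for all probes, and 6.28% and 5.12% for the 2499 position-named probes that did not pass. A match is a description of the letters in the 60-base window only.

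"Intergenic" did not hold for every member. By the probe positions in the files, some members lay between probes of a named gene. At least 41 did so on the same strand and at least 25 on the opposite strand. These counts leave out the members between probes of Rian and of Mirg at the Dlk1-Dio3 locus. Among the 41 were 8 between probes of Mecom, a zinc finger transcription factor, others between probes of Maml3, Tenm3, Zfp654 and Csad, 2 within Airn and 1 within Gas5. By sequence, 36 members shared at least 25 bases with a probe not named by position, 13 on the same strand and 23 on the opposite strand. The member chr8:27133090-27133734_R shared all 60 bases with a Hook3 probe, and chr9:88575075-88611650_R shared 50 bases with one of Mthfs. Set against promoters of RefSeq on GRCm38.p6, from 250 bases before to 50 after a gene's start, 18 members matched 1 of the 32851 windows, 8 on the strand of the gene and 11 on the other strand (1 member matched both ways). The probe of chr6:50361567-50406200_R began 10 bases before the start of Osbpl3 on its strand, and that of chr2:158169020-158191295_F began 55 bases before the start of Snhg17 on the opposite strand.

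No member passed the test for a difference between the treatments. Under limma over the 3 couples with Benjamini-Hochberg adjustment over the 31277 probes, 0 members had an adjusted p under 0.05 (0% of all probes tested), and the lowest adjusted p was 0.69 among the members and 0.41 among all probes. At an unadjusted p under 0.05, 18 members (1.01%) had ratios above 0 and 55 (3.1%) below 0, beside 2.83% and 4.16% of all probes. The same sign on all 6 arrays was found for 158 members (8.89%), 57 above and 101 below 0, and for 12.6% of all probes. At least 1.5-fold with the same sign on all 6 arrays, the members counted 0 higher and 6 lower (0.338%), where all probes counted 0.249% higher and 0.518% lower. By this processing, each share of members lay below that of all probes. The count of 0 higher members depends on the limit. chr5:74487385-74497428_R was above 0 on all 6 arrays, with couple ratios of 1.09, 0.38 and 0.28. Its mean of 0.583 fell just short of 1.5-fold, and its lowest array had 0.004. With the scanner software's own log ratio in place of normexp and loess the 6 members became 38, 13 higher and 25 lower, and their share of 2.14% then lay above the 1.87% of all probes. They were 15 without couple 2 (0.844%, all probes 1.75%) and 16 without couple 3 (0.900%, all probes 1.81%).

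With normexp and loess, the ratios of the members were narrower than those of the whole array. Their median log2 ratio was -0.01 (-0.01, -0.02 and -0.01 in couples 1, 2 and 3), and that of all probes was -0.005. From the 5th to the 95th percentile the members ran from -0.23 to 0.16 and all probes from -0.28 to 0.23. With the scanner software's log ratio the same limits were -0.44 and 0.37 for the members and -0.40 and 0.39 for all probes, so the members were no narrower there. The median SD of a probe over the 3 couples was 0.115 for the members and 0.158 for all probes. Ratios over 2-fold were found above 0 for 3 members and below 0 for 12 in couple 1. In couple 2 the same counts were 3 and 5, in couple 3 they were 1 and 1, and 22 different members made them up. The shares of members were 0.844%, 0.45% and 0.113% in couples 1, 2 and 3, and those of all probes 1.22%, 0.921% and 1.01%. Between the 2 dye orientations of a couple the members' ratios correlated with r of 0.46, 0.62 and 0.54 in couples 1, 2 and 3, where all probes had 0.73, 0.74 and 0.76. Between couples the members' r was 0.28 (couples 1 and 2), 0.07 (1 and 3) and -0.03 (2 and 3). For all probes tested it was 0.18, 0.10 and -0.03 in the same order. These r are descriptions across the 1777 members, or across all probes tested, which share arrays.

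**Figure D1:**
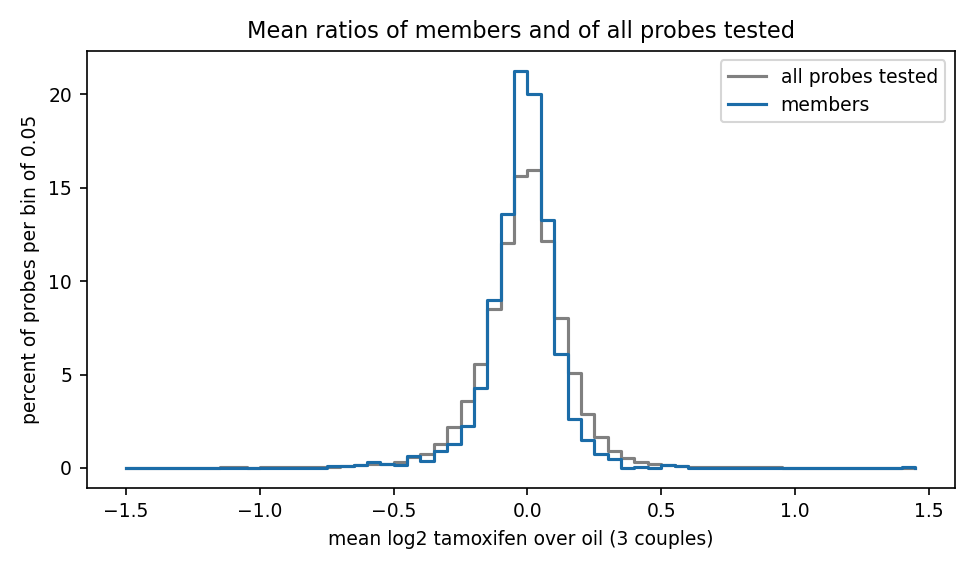
Percent of probes per bin of 0.05 of the mean log2 ratio of tamoxifen over oil (3 couples), for the 1777 members and for the 31277 probes tested, between -1.5 and 1.5; 1 member and 20 of all probes lie outside. The members form the narrower peak around 0 with this processing, normexp and loess.

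The bulk tumors differed in makeup between samples, and fewer cells of a type cannot be told apart from less RNA per cell. All 9 of 9 alveolar type 2 markers, among them surfactant protein C, had mean ratios below 0 (median -0.26). Their mean level was 14.9 to 15.0 in tamoxifen and 15.1 to 15.4 in oil samples. By limma with Benjamini-Hochberg adjustment, 0 had an adjusted p under 0.05. Unadjusted p was under 0.05 for 4 of the 9, beside 4.16% of all probes tested with such a p and a ratio below 0. The 10 alveolar macrophage markers had median ratios of -1.19, 0.70 and -0.35 in couples 1, 2 and 3 (mean levels 11.3 to 12.9 against 12.1 to 12.6), the 12 proliferation markers -0.37, 0.09 and 1.03, and the 4 of 5 erythroid markers tested 0.19, 1.05 and -1.68. The 5 T cell markers had 0.20, 0.10 and 0.08, and the 4 of 5 B cell markers tested 0.16, 0.06 and 0.19. Eif2s3y, a Y-linked gene, read 9.73, 6.20 and 10.70 in tamoxifen samples 1 to 3 and 6.01, 6.06 and 10.07 in oil samples, and Xist, expressed from the inactive X, read 6.62, 9.09 and 6.08 and then 8.74, 8.99 and 5.98. Couple 1 thus paired a sample with high Eif2s3y and low Xist with one of the opposite pattern. Whether these values have a part in the results that follow was not tested.

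Of these 6 members, chr14:44284425-44300475_F, probed at chr14:44293351-44293410, had the smallest SD over couples. Its log2 channel levels were 10.57, 10.70 and 11.05 in tamoxifen samples 1 to 3, and 11.30, 11.36 and 11.54 in oil samples 1 to 3. All 3 tamoxifen samples lay below all 3 oil samples. The couple ratios were -0.74, -0.66 and -0.49, a mean of -0.63 ± 0.13 (SD, n = 3; SE 0.09), or 1.55-fold lower. In limma its unadjusted p was 0.000866 and its Benjamini-Hochberg adjusted p 0.69. With the 6 arrays fitted separately and the couple as a replicate block, its adjusted p was 0.0296, and it was the only member called of 75 probes in all (0.240% of those tested). No tested NM probe lay within 100 kb of it.

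The other 5 of the 6 also had an adjusted p of 0.69 in limma with Benjamini-Hochberg adjustment. chr11:97457180-97487074_R read 8.52, 8.35 and 8.61 in tamoxifen and 8.94, 8.90 and 9.78 in oil samples. The groups did not overlap, and oil sample 3 stood highest. Its couple ratios were -0.42, -0.56 and -1.16 (mean -0.71 ± 0.39, SD, n = 3). The nearest tested NM probe, of Epop, a partner of Polycomb repressive complexes, was 4.78 kb away on the same strand with -0.21, 0.20 and -0.11, which lay on both sides of 0.

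chr10:39666719-39679959_R read 6.60, 6.90 and 7.39 in tamoxifen and 7.71, 7.32 and 7.91 in oil samples. Tamoxifen sample 3 lay just above oil sample 2, so the groups overlapped. The couple ratios were -1.11, -0.41 and -0.52 (mean -0.68 ± 0.37), and Mfsd4b1, of the major facilitator family of transporters, 55.0 kb away on the same strand, had -0.44, -0.25 and -0.29. chr19:46419916-46421753_F read 8.60, 9.67 and 9.56 in tamoxifen and 9.61, 9.88 and 10.42 in oil samples. Tamoxifen sample 2 lay above oil sample 1, and couple 2 carried little of the difference, with ratios of -1.01, -0.21 and -0.86 (mean -0.69 ± 0.43). Cuedc2, 16.6 kb away on the opposite strand, had 0.50, 0.16 and 0.19.

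**Figure D2:**
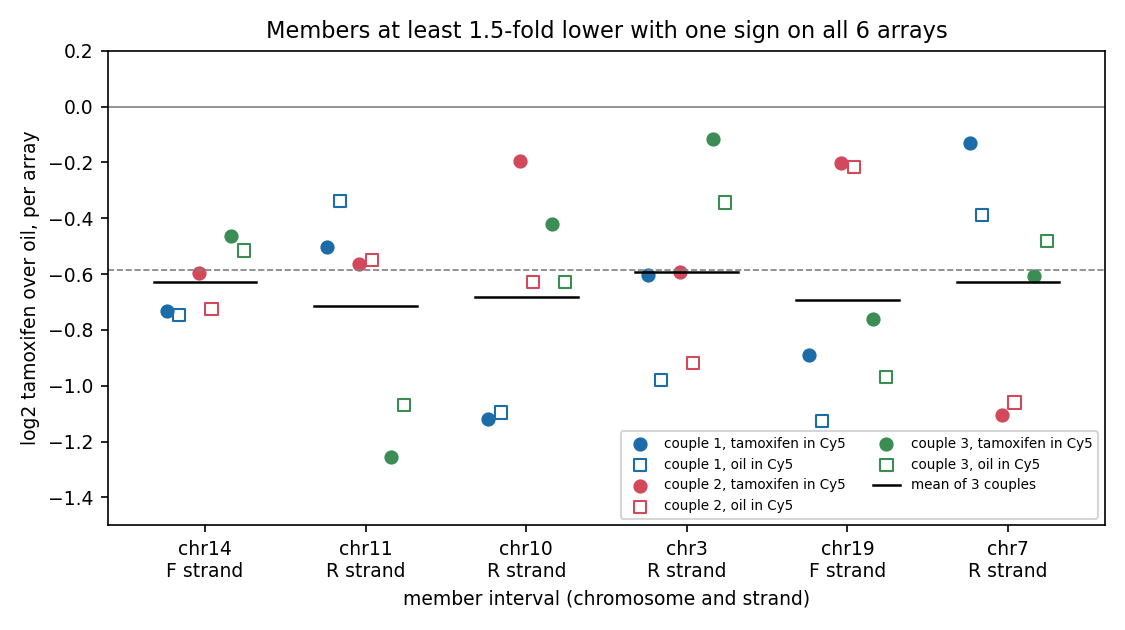
Log2 ratio of tamoxifen over oil on each of the 6 arrays for the 6 members at least 1.5-fold lower in the mean with the same sign on every array; filled circles have tamoxifen in Cy5, open squares oil in Cy5, black bars are means over the 3 couples and the dashed line is 1.5-fold. Every point lies below 0.

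Where several members lay close together, their ratios could be read side by side. The stretches that follow were chosen after their values were seen, and their members share samples and possibly transcripts, so they are no replicates of each other. The first is the stretch of chromosome 3 between probes of Mecom, with 10 position-named probes, of which 8 were members, all on the strand of Mecom. All 8 had ratios below 0 in all 3 couples, as 17.6% of all members did, and 5 of them on all 6 arrays, as 5.68% of all members did. Their mean ratios ran from -0.11 to -0.59, with medians of -0.21, -0.54 and -0.10 in couples 1, 2 and 3. Unadjusted limma p was under 0.05 for 3 of them. Such a p with a ratio below 0 was found for 3.1% of all members and 4.16% of all probes tested.

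The lowest of the 8 was chr3:30099759-30133959_R, the member with a run of 5 G printed above, which read 7.94, 8.23 and 8.45 in tamoxifen and 8.73, 8.98 and 8.68 in oil samples. The groups did not overlap, and its ratios were -0.79, -0.75 and -0.23. On the arrays with tamoxifen in Cy5 it had -0.60, -0.59 and -0.12, and with oil in Cy5 -0.98, -0.92 and -0.34. It was thus lower with oil in Cy5 in each couple, and the part of its G run in this was not tested. chr3:30077338-30080281_R read 7.68, 8.06 and 8.13 in tamoxifen and 8.05, 8.79 and 8.35 in oil samples. Here oil sample 2 stood highest and oil sample 1 lay among the tamoxifen samples. The Mecom probe 10.6 kb from the lowest member had -0.18, -0.51 and -0.16. Both Mecom probes at the far end of the stretch had -0.03 in the mean (adjusted p 0.94 and 0.95 in limma with Benjamini-Hochberg adjustment). In couple 2 these far-end probes had -0.16 and -0.13. Their levels of 6.31 to 6.85 lay near background, where ratios are compressed. The 2 Mecom probes at the other end were well above background in 0 readings.

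**Figure D3:**
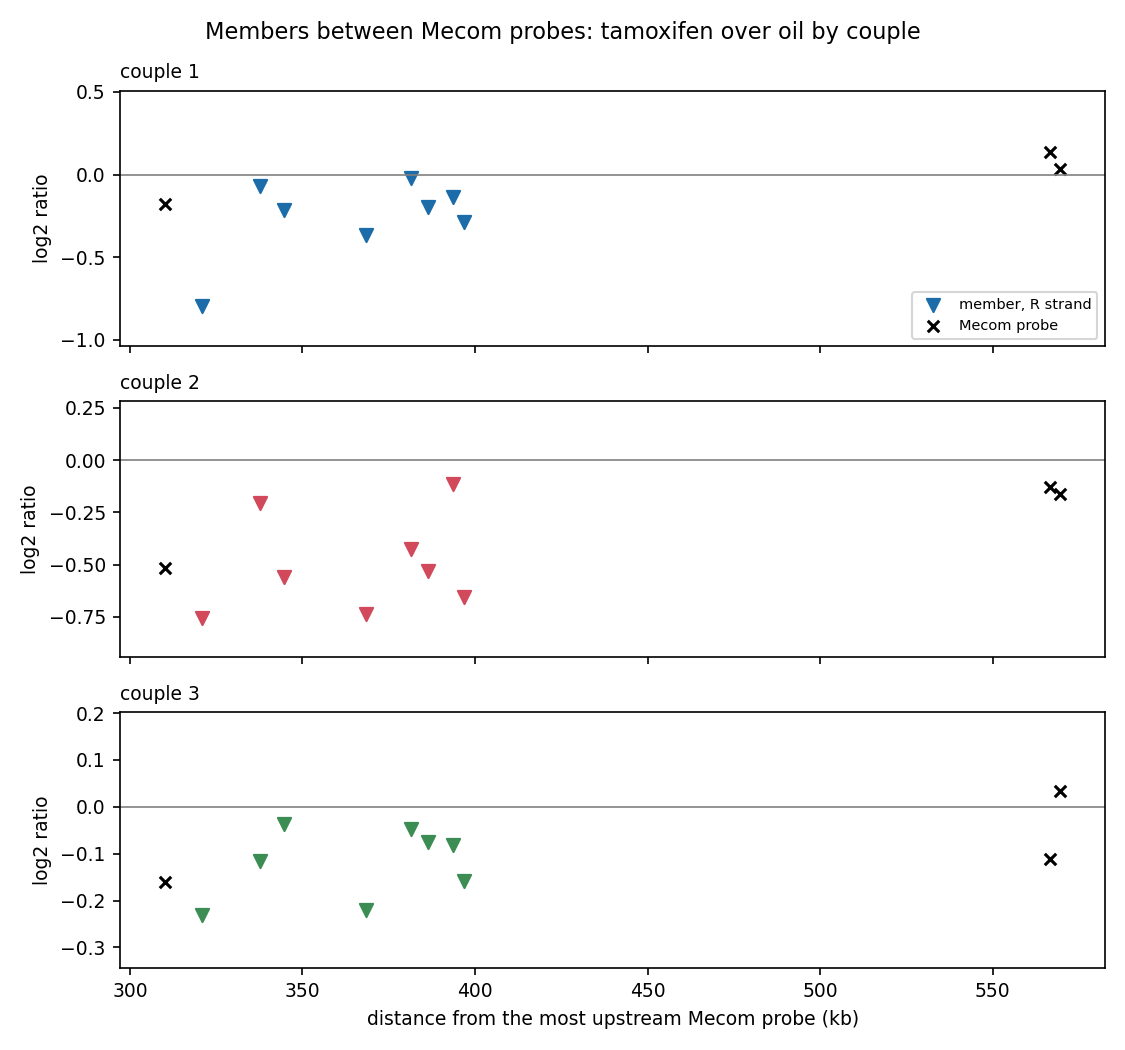
Log2 ratio of tamoxifen over oil by couple against the distance in kb from the most upstream Mecom probe, for the 8 members and the 3 tested Mecom probes; the y axes differ between couples. The members lie below 0 in each couple, with the lowest median in couple 2.

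The second stretch lay on the reverse strand of chromosome 7. chr7:69088784-69089906_R, printed above, read 7.42, 7.45 and 7.81 in tamoxifen and 7.68, 8.53 and 8.36 in oil samples. Oil sample 1 lay among the tamoxifen samples, and the ratios were -0.26, -1.08 and -0.54 (mean -0.63 ± 0.42). Its 3 nearest members on that strand had -0.17, -0.74 and -0.30 (chr7:69075022-69127242_R), -0.13, -0.71 and -0.09 (chr7:69081844-69083628_R), and -0.42, -1.07 and -0.22 (chr7:69117827-69127242_R). All 4 were lowest in couple 2. The overlapping forward member chr7:69024136-69131056_F had 0.20, -0.27 and 0.11, and the reverse member before the stretch, chr7:69008096-69070309_R, had -0.38, 0.07 and -0.49.

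Larger differences than these did not hold in all 3 couples. The 3 members with the widest range of couple ratios are shown, and their probes hold neither a run of 5 G nor a polyadenylation signal on the probe strand.

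chr12:52945074-52945874_R: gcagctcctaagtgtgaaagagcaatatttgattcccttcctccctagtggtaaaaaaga
chr16:8738782-8830148_F: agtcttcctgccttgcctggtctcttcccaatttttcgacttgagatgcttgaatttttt
chr11:69185658-69186082_F: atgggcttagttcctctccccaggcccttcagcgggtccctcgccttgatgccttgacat

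chr12:52945074-52945874_R read 9.26, 10.01 and 6.90 in tamoxifen samples and 6.69, 6.99 and 7.27 in oil samples. Tamoxifen samples 1 and 2 stood far above the other 4, with couple ratios of 2.57, 3.02 and -0.37. The nearest tested NM probe, of Heatr5a at 31.9 kb, had -0.27, 0.04 and 0.08. chr11:69185658-69186082_F had the same order, with 10.75, 11.42 and 8.79 in tamoxifen and 8.77, 9.01 and 8.86 in oil samples and ratios of 1.97, 2.41 and -0.06, beside 0.19, 0.17 and -0.07 for Cyb5d1, 21.2 kb away. In chr16:8738782-8830148_F, tamoxifen sample 2 read 14.08 and oil sample 2 read 11.72, above 9.14 and 9.01 in the other tamoxifen and 9.85 and 9.10 in the other oil samples. Both samples of couple 2 were thus the highest, and the ratios were -0.71, 2.36 and -0.09. The reverse member of the same interval had 0.14, -0.09 and -0.09. With 3 couples, the mean ratios of these 3 members (1.74, 0.52 and 1.44) had adjusted p of 0.69, 0.87 and 0.69 in limma with Benjamini-Hochberg adjustment.

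Couples 2 and 3 differed in opposite directions at the imprinted Dlk1-Dio3 locus of chromosome 12. This locus expresses the protein-coding Dlk1, a Notch-like membrane protein, from the paternal chromosome and the long noncoding Meg3, Rian and Mirg from the maternal one. Of 22 position-named probes there, 12 were members, 10 forward, the strand of these noncoding genes, and 2 reverse. The 2 with the widest range of couple ratios are shown.

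chr12:110894095-110899517_F: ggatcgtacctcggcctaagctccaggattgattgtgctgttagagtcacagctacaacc
chr12:110842154-110883594_F: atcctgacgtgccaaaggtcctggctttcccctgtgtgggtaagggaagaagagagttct

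chr12:110894095-110899517_F read 9.74, 8.54 and 10.49 in tamoxifen and 9.40, 9.68 and 9.53 in oil samples. The oil samples stayed close together, while tamoxifen sample 2 was lowest and sample 3 highest, giving ratios of 0.34, -1.14 and 0.96. The printed probe of chr12:110842154-110883594_F read 9.61, 8.55 and 10.42 against 9.62, 9.65 and 9.59, with ratios of -0.01, -1.10 and 0.83, again with tamoxifen sample 2 lowest and sample 3 highest. All 10 members between 151 and 285 kb from the first Dlk1 probe were below 0 in couple 2 and above 0 in couple 3, as 26.2% of all members were, and the 2 members 602 and 625 kb from it had 0.17 and 0.07 in couple 2 and -0.01 and 0.09 in couple 3. The medians over the 12 were 0.01, -0.45 and 0.54 in couples 1, 2 and 3. Only 10 members of all had a ratio under -0.4 in couple 2 and over 0.4 in couple 3, and 7 of them lay here. The widest of the other 3, chr9:68349343-68411643_F, read 9.22, 8.06 and 9.93 in tamoxifen and 9.15, 9.15 and 8.89 in oil samples, with ratios of 0.07, -1.09 and 1.03.

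The named noncoding genes of the locus had the same order. Some forward members lay between the probes of Rian and another between those of Mirg, and whether they read those transcripts was not tested. Meg3 ran over its 5 probes from -0.93 to -2.57 in couple 2 and from 0.07 to 0.84 in couple 3. The Rian probes had 0.05, -1.52 and 0.87, and -0.06, -0.44 and 0.44. The Mirg probes had 0.02, -1.61 and 1.13, and 0.02, -1.52 and 1.37. Dlk1 was different: 1 probe read 17.1, 17.8 and 13.7 in tamoxifen and 11.1, 12.6 and 14.7 in oil samples, with ratios of 5.99, 5.11 and -0.96, and the other had 4.29, 3.89 and -0.82. Dlk1 was thus high in tamoxifen samples 1 and 2, the samples in which chr12:52945074-52945874_R and chr11:69185658-69186082_F on other stretches were high.

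**Figure D4:**
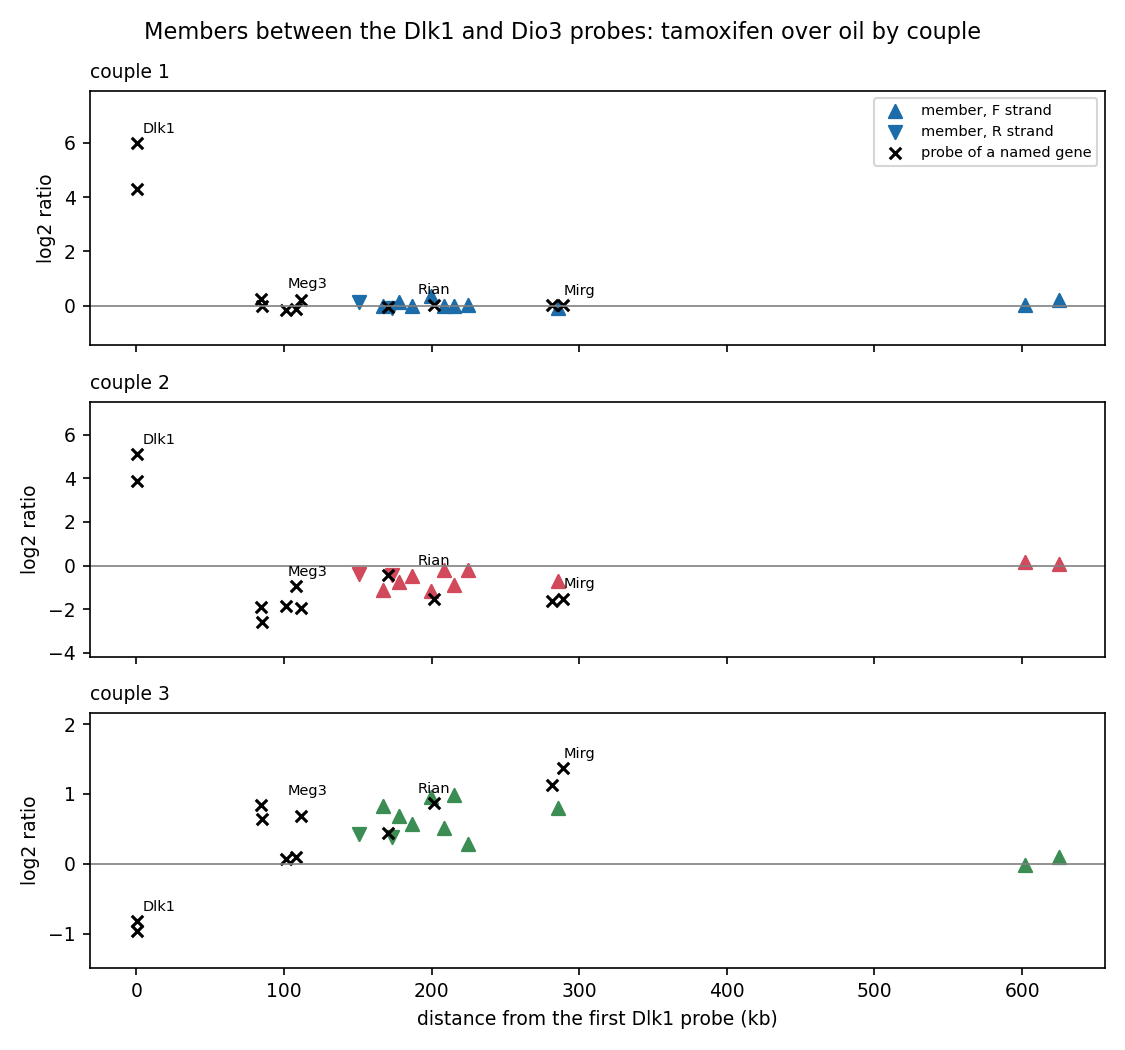
Log2 ratio of tamoxifen over oil by couple against the distance in kb from the first Dlk1 probe, for the 12 members and the named genes of the locus that were tested; the y axes differ between couples. The 10 members up to 285 kb lie near 0 in couple 1, below 0 in couple 2 and above 0 in couple 3, beside Meg3, Rian and Mirg.

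A set of members on different chromosomes shared another order of couples, low in couple 1, near 0 in couple 2 and low in couple 3. Taken after the values were seen as a ratio under -0.8 in couple 1, within 0.3 of 0 in couple 2 and under -0.55 in couple 3, it held 7 members and 56 of all probes tested. Of the 7, 5 held at least 1 of the runs GTCTGTTCC, GTGTCTGTT and TGTTCCCG on the probe strand, which overlap in GTCTGTT or TGTTCC, and 4 of these are shown, each with the run it holds in capitals. The last line has the same order of couples with none of these runs in full. It does hold gtgtctgtg, which differs from GTGTCTGTT in the last base only.

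chr1:134867906-134885481_R: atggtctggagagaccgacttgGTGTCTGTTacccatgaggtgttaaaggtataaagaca
chr14:33975934-33998694_R: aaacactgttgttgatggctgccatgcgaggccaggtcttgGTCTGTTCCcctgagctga
chr8:80581177-80621652_F: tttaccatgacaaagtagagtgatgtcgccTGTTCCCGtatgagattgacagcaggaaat
chr9:56910620-56919495_F: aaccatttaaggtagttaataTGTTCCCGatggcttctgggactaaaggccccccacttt
chr3:151746091-151753763_R: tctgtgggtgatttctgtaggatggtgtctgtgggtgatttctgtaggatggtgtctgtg

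chr1:134867906-134885481_R read 9.33, 10.49 and 10.06 in tamoxifen and 10.51, 10.47 and 10.85 in oil samples, with ratios of -1.17, 0.02 and -0.79. The other 3 with a capitalised run had -1.06, 0.13 and -0.78 (chr14:33975934-33998694_R), -1.05, 0.05 and -0.76 (chr8:80581177-80621652_F), and -1.01, 0.10 and -0.72 (chr9:56910620-56919495_F). In each, tamoxifen sample 1 was the lowest of the 6. chr3:151746091-151753763_R had -0.94, 0.08 and -0.69, and chr19:46419916-46421753_F, among the 6 lowest members, is the other without a run.

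Any of the 3 runs was present on the probe strand in 10 members (0.563%), in 59 probes tested (0.189%) and in 0.131% of all probes on the array. Of the 59, 10 had the order of couples, among them probes of Mcpt-ps1, Nup155, Wdr62 and Lhx9. The median ratios over all 59 were -0.23, 0.02 and -0.12 in couples 1 to 3. On the opposite strand the runs were present in 40 tested probes, of which 0 had it. The 3 runs were chosen from these same probes, so the counts support nothing further.

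The 2 arrays of couple 1 gave different ratios for some members. In 6 members, and in 25 of all probes tested, they differed by over 2 log2 units, and in all of these the array with oil in Cy5 was the lower. In couples 2 and 3, 0 members and 0 probes did. Of the 6 members 5 held a run of 5 or more G, as did 19 of the 25 probes. Of the 4 shown, 3 hold such a run, in capitals, and the last has no run over 4.

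chr14:76237150-76237464_R: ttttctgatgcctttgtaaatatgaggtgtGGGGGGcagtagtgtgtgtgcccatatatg
chr14:33895294-33923644_R: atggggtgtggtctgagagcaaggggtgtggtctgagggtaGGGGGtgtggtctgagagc
chr14:78214602-78225827_F: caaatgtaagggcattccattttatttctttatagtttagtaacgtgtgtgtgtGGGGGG
chr10:56151791-56184966_F: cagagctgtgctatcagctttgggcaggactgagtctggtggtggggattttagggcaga

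On the array of couple 1 with oil in Cy5 these read -3.73, -3.44, -3.20 and -2.37 in the order shown, and on its dye-swapped partner 0.13, -0.01, 0.44 and 0.06. Their couple 1 ratios of -1.80, -1.73, -1.38 and -1.16 thus rest on 1 array. Over the 57 members with at least 5 G in a row, the median on that array was -0.35, beside 0.03 on its partner and between -0.05 and 0.01 on the other 4 arrays. For the 1551 members with no run over 3 it was -0.01, for the 169 with a run of 4 it was -0.07, and for the 11 with 6 or more it was -0.71. Of the 12 members over 2-fold lower in couple 1, 4 held such a run. Taking couple 1 from its other array alone left 0 members called and 6 at 1.5-fold, 1 higher and 5 lower.

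**Figure D5:**
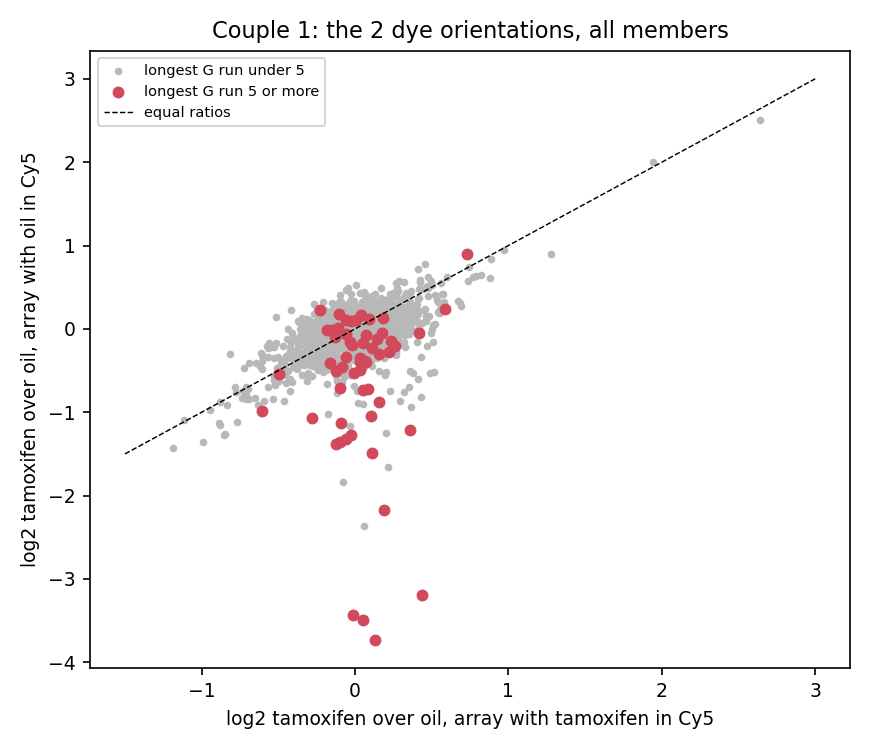
Log2 ratio of tamoxifen over oil on the 2 arrays of couple 1, with tamoxifen in Cy5 (x) and with oil in Cy5 (y), for all members, with those holding at least 5 G in a row marked; the dashed line shows equal ratios. The 6 members whose arrays differ by over 2 units lie below the line, and 5 of them are marked.

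Both strands were probed in 812 intervals. Both were members in 214 of them, the forward strand alone in 155, the reverse strand alone in 214 and neither in 229. Over the 214 pairs the ratios of the 2 strands correlated with r of 0.09, 0.14 and 0.12 in couples 1, 2 and 3, and the mean ratios had the same sign in 114, with a median absolute difference of 0.087. In chr5:34696192-34722842 the forward probes averaged 0.002 and the reverse probe -0.03. In chr6:83368261-83407280 the forward member had -0.08 ± 0.06 and the reverse member -0.25 ± 0.28. The reverse member of chr7:108209996-108216032, with 0.03, 0.14 and 0.01, shared 28 bases with a probe of Rps29, a ribosomal protein, which had 0.05, 0.13 and 0.02. Its forward probes averaged 0.26, 0.23 and 0.06. Both strands of chr12:73838608-73862621 had mean ratios of -0.07 ± 0.07 and -0.09 ± 0.08. In chr14:33923944-34003394 the forward member had -0.33, 0.23 and -0.21 and the reverse member -0.02, -0.04 and -0.03.

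Different probes to the same interval and strand had higher r than the 2 strands did. In 99 names at least 2 probes were members, and in 12 names 3 were. The first 2 probes of a name correlated with r of 0.48, 0.61 and 0.59 in couples 1, 2 and 3, the mean ratios of all probes of a name had the same sign in 60 of 99, and the range of a name's probes, averaged over couples, had a median of 0.116. For chr6:11996975-12037300_F the probes had 0.08, 0.29 and 0.12, then 0.08, 0.27 and 0.05, then 0.07, 0.25 and 0.05, highest in couple 2 each time. Of the 3 probes of chr2:167388900-167402475_R, 2 had 0.58 and 0.63 in couple 3 where the other had -0.04. In chr1:175654606-175672031_R, near Ifi204, 2 adjoining probes had -0.18 and -0.30 in couple 1 and the third had 0.01. Those of chr5:96591892-96606467_F had -0.07, -0.12 and -0.32, then 0.02, -0.14 and -0.29, then -0.11, -0.09 and -0.30, lowest in couple 3 each time. The first 2 of these probes overlap and so cover part of the same bases. The third shares 26 bases with an Ifitm3 probe that had -0.20, -0.08 and 0.17.

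The ratios of members were set beside those of the nearest messenger RNA probe. The median distance to it was 35.3 kb over the 1752 members with a mapped position, and 1375 had 1 within 100 kb. Within 2 kb on the same strand (n = 36) the ratios correlated with r of 0.03, 0.52 and 0.61 in couples 1, 2 and 3, and on the opposite strand (n = 38) with 0.04, 0.25 and 0.31. From 2 to 10 kb the same-strand r was 0.26, 0.34 and 0.26 (n = 180) and the opposite-strand r -0.10, 0.20 and 0.13 (n = 96). From 10 to 30 kb the same-strand r was 0.12, 0.30 and 0.25 (n = 247) and the opposite-strand r 0.05, 0.04 and 0.11 (n = 194). From 30 to 100 kb both lay between 0.07 and 0.16. The pairs share arrays, and whether 2 neighbouring probes read 1 transcript was not tested.

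Long noncoding RNA genes known by name gave a background. Of a list of 50, 42 were on the array and 34 were tested; 16 had mean ratios above and 18 below 0, with a median of -0.03, beside -0.005 for all probes. By limma with Benjamini-Hochberg adjustment 0 had an adjusted p under 0.05, and 3 of the 34 had an unadjusted p under 0.05. Of all probes tested, 2.83% had such an unadjusted p with a ratio above 0 and 4.16% with a ratio below 0. Neat1, the scaffold of paraspeckles, had -0.24, -0.40 and -0.16. Lncpint, a p53-induced noncoding RNA, had -0.61, -0.38 and -0.21 (mean -0.40 ± 0.20, SD, n = 3). Snhg5, a snoRNA host gene, had 0.10, 0.37 and 0.48.

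Members at such genes could be compared with them. At Pvt1, next to Myc, the member chr15:61984389-62102500_F, which shares 28 bases with a Pvt1 probe, had 0.54, 0.14 and -0.05, and the Pvt1 probe that stands for the gene had 0.67, 0.52 and -0.09. At Airn, the antisense noncoding RNA of imprinted Igf2r, both members of chr17:13008796-13023201_F were highest in couple 3 (0.50 and 0.32), as was the Airn probe (0.76). The member within Gas5, chr1:162965309-162970704_F, had 0.23, 0.08 and -0.10, beside 0.12, 0.22 and -0.28 for Gas5. The SD over couples of these 4 members lay between 0.16 and 0.30, and each mean ratio (0.07 to 0.21) was smaller than its SD. Both members counted at Snhg14, a snoRNA host gene whose own probe had -0.08, 0.04 and -0.03, lay on the opposite strand. Members between the probes of Rian and of Mirg, also on the list, are described with the Dlk1-Dio3 locus. chr7:66562613-66565106_F had -0.10, -0.09 and -0.19 (mean -0.13 ± 0.06, SD, n = 3), below 0 in each couple, and chr7:66574000-66577193_F had -0.02, 0.13 and -0.11.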

How the data were processed

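The members and gene lists were chosen with earlier results of these data known. Members are named in the text by fixed rules: those at least 1.5-fold with the same sign on all 6 arrays, up to 8 a direction by p, the 6 with the largest range over couples, those seen in 1 treatment only, 6 intervals with members on both strands by the signal of the dimmer one, and 4 names with the most probes. Stretches, runs of letters and orders of couples were chosen after their values were seen.

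Per the labels' protocols, 50 ng of total RNA were reverse transcribed from a poly dT primer. The deposited files hold, per the file headers, the intensity of each spot as mean foreground and median local background without normalization, flags of 0 or 1, and a log10 ratio of Cy5 over Cy3 after background subtraction, detrending and dye normalization. The submitters' processing notes name Agilent Feature Extraction 12.0.3.1. The deposited series table holds a log2 ratio, Cy5 over Cy3, per array. Regressed on each array's own log10 ratio its columns had slopes of 3.32 to 3.33, which settles scale and direction, and their medians were 0.14, -0.14 and -0.06 (tamoxifen in Cy5) and 0.13, -0.15 and -0.01 (oil in Cy5), with no centring added. Positions are on mm9, for which no genome or annotation was used here.

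From the intensities, limma 3.58.1 (R 4.3.3) applied normexp with an offset of 50 to the 62976 spots and loess array by array, giving the 3671 control spots no weight. Outlier-marked spots were dropped, none being saturated (0). Replicate spots were averaged, each ratio was oriented as tamoxifen over oil, and then both arrays of a couple were averaged. lmFit and eBayes tested 3 couples against 0, two-sided, with Benjamini-Hochberg adjustment over all probes. The offset pulls dim probes' ratios toward 0. The number of arrays limits the precision (median SE of a member 0.085). All arrays were on 1 slide and 1 scan, so no batch was tested. Levels are log2 channel values after Aquantile normalization. Symbols were updated for 25876 of 27252 accessions through RefSeq on GRCm38.p6. The fit was tested on simulated data. The couple is the pairing of the samples and, in the 6-array alternative, the replicate block (correlation 0.602).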

Additional observations from a re-analysis of the deposited data

How the results depend on the processing

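Members with an adjusted p under 0.05 numbered 0 under 12 of 13 alternatives (limma with Benjamini-Hochberg adjustment) and 1 with the couple as a replicate block over 6 arrays, where the 2 arrays of a couple are not averaged and count separately. Beside these counts, between 42 and 131 members had an unadjusted p under 0.05 (2.36% to 7.37%, all probes 4.71% to 10.1%). With no filter on dim probes their share was the larger (7.37%, all probes 6.79%), and under the other 12 the smaller. In the unfiltered setting the members were still those that had passed the filter, while all probes then included the dim ones. Those 2 shares are therefore not of like sets. The 6 members at 1.5-fold on all arrays became 38 (13 higher, 25 lower; 2.14%, all probes 1.87%) with the scanner software's log ratio, 38 with the authors' deposited value table and 2 (0 higher, 2 lower) with median centring, and 6 to 16 when a couple was left out: 6 without couple 1, 15 without couple 2, 16 without couple 3. Fewer arrays then have to have the same sign; otherwise the cause was not tested. The median ratio of the members was -0.0023 with median centring and between -0.016 and -0.005 otherwise. For the 6 members named by ratio, all 78 values were below 0 (-1.22 to -0.40), and the lowest adjusted p over couples was 0.50. For 58 other named members, 704 of 733 values lay within 1 SD. Taking couple 1 from its array with tamoxifen in Cy5 alone was chosen after seeing the data. The depth of an array is its signal over background: 51.8% to 58.8% of probes were well above it per reading, and ratios of members near it are compressed.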
